A study of Gallus gallus with 12 samples.

Results

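The 12 arrays of chick lung RNA were divided into 2 states by the transcript ENSGALT00000036310, which was near background on 4 arrays and bright on the other 8. Here the 4 are called the low arrays and the 8 the high arrays. The low arrays were E15 replicates 1 and 2, E16 replicate 3 and E18 replicate 2. The high arrays were all 3 of E14, together with replicate 3 of E15, the first pair of E16 (replicates 1 and 2) and, at E18, replicates 1 and 3. Each array carried labelled cDNA made from total RNA of whole lung of untreated white leghorn embryos. The embryos were at embryonic day (E)14, 15, 16 or 18, with 3 samples at each stage. The labels give the stage and replicate of a sample. The sex of the embryos, and whether a sample was 1 lung or a pool, are not given in the sources used here. Low arrays numbered 2 of 3 at E15, 1 of 3 at E16, 1 of 3 at E18 and 0 of 3 at E14, so E14 holds no comparison between the states.

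In birds the sexes differ in their sex chromosomes. Hens carry a Z and a W chromosome and cocks carry a pair of Z chromosomes. Genes of the W are thus transcribed in females only, and many genes of the Z are known to be expressed somewhat more in males, because birds balance the dose of the Z incompletely. This is background to a candidate reading of the split as one of sex. That reading was not tested, because none of the 21390 transcript identifiers could be matched to a symbol or a chromosome in the tables at hand. For the same reason no gene is named, the W-linked and Z-linked genes could not be looked up, and the lung was not checked against its own markers.

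The deposited values are log2 signals after Robust Multi-array Analysis (RMA), 1 per transcript and array, and a difference of 1 is a doubling. The random-sequence control of the array, which has no chick target, lay between 4.40 and 5.17. Transcripts near those values are at background. The spread of the log2 values was narrower on 4 arrays than on the rest, with an SD of 2.21 on E18 replicate 3, 2.38 on E18 replicate 2, 2.44 on E15 replicate 3 and 2.51 on E16 replicate 1. Of these, E18 replicate 2 is a low array and the other 3 are high arrays. The mean SD was 2.55 ± 0.11 (SD, n = 4) on the low arrays and 2.52 ± 0.14 (SD, n = 8) on the high arrays. A two-sided exact permutation test over all ways to choose 4 of 12 arrays gave p = 0.846 for this difference and p = 0.980 for the array median, with an adjusted p of 0.980 for each over 4 measures of the arrays. The lower quartile and the random control gave p = 0.945 and p = 0.949 in the same exact test. The test exchanges arrays across stages, although the states are uneven over the stages, and without E18 replicate 3 the difference in SD turned to -0.0206. The 3 arrays at E14, where no array is low, had SDs of 2.61 to 2.62 and counted in the high mean. These p-values thus do not show that the spread was even between the states at E15, E16 and E18.

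ENSGALT00000036310 read 14.75, 14.73 and 14.66 on the 3 arrays at E14. At E15 it read 4.74 and 5.53 on the low arrays and 14.57 on the high array. At E16 it was 14.75 and 14.78 on replicates 1 and 2 and 4.97 on replicate 3, and at E18 it was 14.67 and 15.22 on replicates 1 and 3 and 4.26 on replicate 2. No array lay between the states, which were 9.05 log2 units apart. On the low arrays the transcript was within 0.40 of the random control of the same array, so its fold difference is set by the background and not by a measured level. These values chose the arrays and are given as a description.

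The same arrays parted 25 transcripts, 0.117% of all, by a gap of at least 3 log2 units, with all 4 low arrays below all 8 high arrays. This set, which includes ENSGALT00000036310, is called the block. No transcript had such a gap in the other direction, where the widest was 0.58. The median of the block was between 13.61 and 14.05 on the high arrays, where it was brighter than 93.0% to 96.4% of all transcripts. On the low arrays the block median was 6.21 and 6.26 at E15, 6.25 at E16 and 5.16 at E18. Of the 25, between 11 and 16 lay within 1 log2 unit of the random control on each low array. With stage in the fit, the difference between low and high arrays ran from -9.97 to -4.73, with a median of -7.77. Where a transcript was near the control on the low arrays, its difference, and its place among the widest gaps, is limited by the background.

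**Figure D1:**
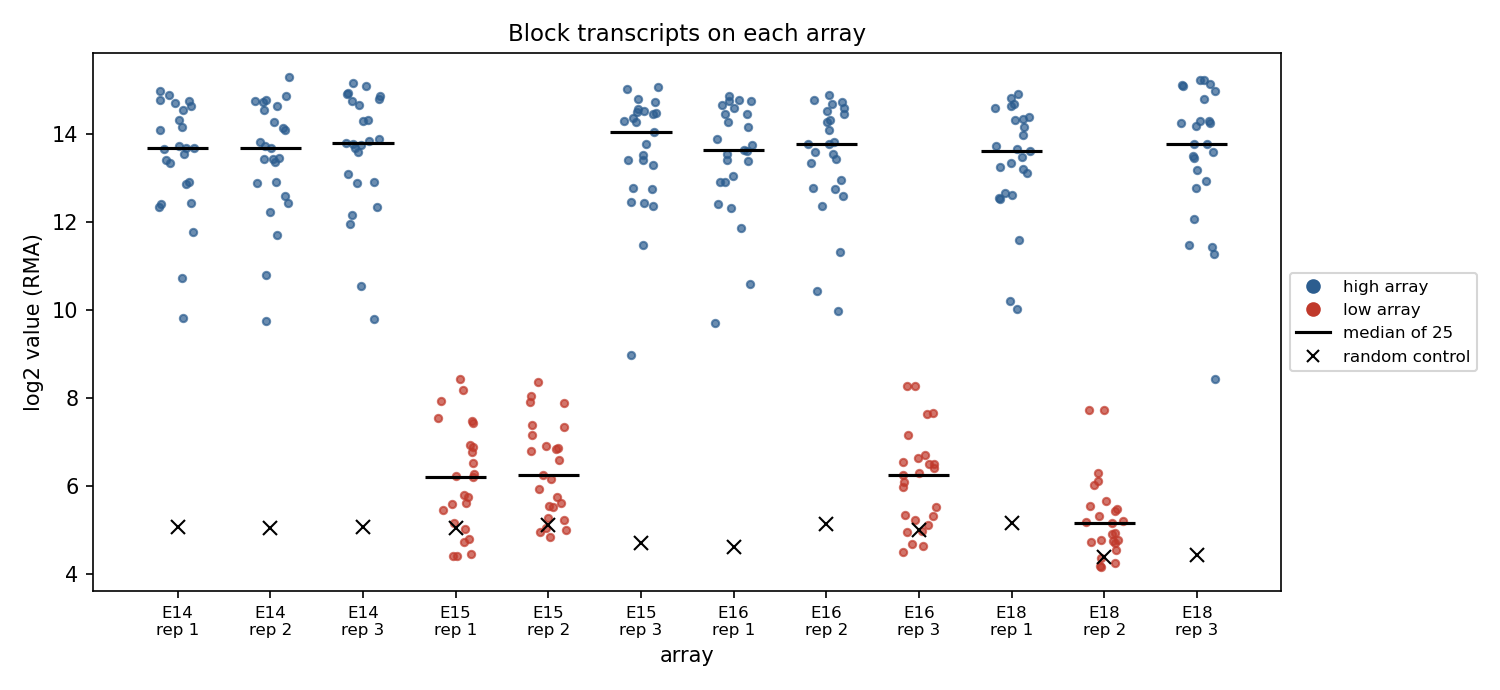
Log2 RMA values (y axis) of the 25 block transcripts on each of the 12 arrays (x axis), with the median as a bar and the random-sequence control as a cross. The medians of the 8 high arrays lie between 13.61 and 14.05 and those of the 4 low arrays between 5.16 and 6.26, and 3 of the 4 stages hold arrays of both states.

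The widest gaps after that of ENSGALT00000036310 belonged to ENSGALT00000036342 and ENSGALT00000036333, at 8.19 and 8.18 log2 units. ENSGALT00000036342 was between 14.13 and 14.45 on the 8 high arrays, and read 5.76, 5.94, 5.32 and 4.55 on E15 replicates 1 and 2, E16 replicate 3 and E18 replicate 2. ENSGALT00000036333 was between 13.66 and 15.09 on the high arrays, and read 5.45, 5.06, 5.35 and 5.48 on the low arrays in the same order. On the low arrays neither was above 5.94. The narrowest gaps in the block were 3.17 for ENSGALT00000006939, 3.21 for ENSGALT00000036319 and 3.30 for ENSGALT00000031505. ENSGALT00000036319 kept more signal than most of the block on the low arrays, with 8.18, 8.05, 8.28 and 6.12 in that order, against 11.49 to 12.52 on the high arrays. ENSGALT00000006939 was the dimmest of the block on the high arrays, with 8.44 to 10.02, and read 4.40, 5.27, 4.68 and 4.18 on the low arrays. ENSGALT00000031505 had a median of 10.66 on the high arrays, reached 12.92 on E18 replicate 3, and lay between 4.77 and 6.91 on the low arrays. The transcripts just outside the block were ENSGALT00000036312 with a gap of 2.48, ENSGALT00000041374 with 2.25 and ENSGALT00000022940 with 1.82.

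Within the high state the block varied little. The SD of a block transcript over the 8 high arrays had a median of 0.31, between 0.08 and 0.87, where the median over all transcripts was 0.46. The block was chosen for a wide gap and is bright on these arrays, whereas all transcripts include dim ones. These medians are therefore not compared at a like level. Over the low arrays E18 replicate 2 stood lowest in 21 of the 25 transcripts. On that array the random control was also low, at 4.40, and its part in the lower values was not tested. On 3 transcripts of the block the value was instead highest on E18 replicate 2 among the low arrays. For 2 of them, ENSGALT00000029239 and ENSGALT00000035390, the value there was 7.72 and 7.74, against 4.41 to 5.22 on the other low arrays. The same pair was dimmer on E18 replicate 3, at 11.27 and 11.44, than on the other high arrays, at 12.62 to 12.92. Their values differed from each other by no more than 0.17 on any high array and by 0.02 on E18 replicate 2. On the other low arrays, where both were near background, they differed by 0.74 and 0.27 at E15 and by 0.46 at E16. They may not be separate measurements, which was not tested. Whether their probes overlap is not given in the sources used here. The pair was chosen after its values were seen. By stage, the median difference of the block was -7.60 at E15, -7.58 at E16 and -8.64 at E18. A test of whether the difference changed with stage (limma moderated F-test over all transcripts) called 0 of 21390 transcripts, 0%, at an adjusted p of at most 0.05. Without adjustment 854 of the 21390 transcripts, and 14 of the 25 in the block, had a p under 0.05 in this test. The fit left 5 residual degrees of freedom, and the block was chosen by values of these same arrays. The 0 calls thus do not show that the difference was even over the stages.

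Outside the block, 30 more transcripts were lower on every low array than on every high array. This brings the number without overlap to 55, or 0.257% of all. An arbitrary split of 4 against 8 arrays also parts some transcripts in this way, and how many was not counted. The 30 are thus not all shown to follow the state. Their gaps ran from 2.48 for ENSGALT00000036312 down to 0.02 for ENSGALT00000032603, which had an adjusted p of 0.989 in limma. The differences of the 30 ran from -4.01 to -0.29 with a median of -1.96, and no more than 3 of them lay within 1 log2 unit of the random control on any low array. Their median was between 11.64 and 11.85 on the high arrays other than E18 replicate 3, where it was 10.63. Among the low arrays it was 9.05 and 8.84 at E15, 9.04 at E16 and 7.90 at E18. The limma fit with stage as covariate called 43 transcripts lower on the low arrays, 0.201% of all, at an adjusted p of at most 0.05. These were the 25 of the block and 18 of the 30. The arrays were grouped by values of these same arrays, so the calls rank transcripts and are not independent evidence for the split.

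Of the 18, ENSGALT00000038395 had the largest difference, -3.96 (standard error 0.51), with an adjusted p of 0.019 in limma. This call was lost in 11 of 22 other settings, over which the adjusted p ran from 3.7e-05 to 0.246, among them the fit with the replicate block (0.144) and that without E14 (0.164). It read 11.09 to 12.09 on the high arrays, 6.75 and 6.18 on the low arrays of E15, 7.15 on that of E16 and 9.56 on that of E18. The low arrays of E15 and E16 were thus alike and E18 replicate 2 lay between them and the high arrays. ENSGALT00000023726 differed by -3.46 (standard error 0.31). It read 8.22, 8.02, 8.83 and 7.65 on the low arrays, in the order E15 replicates 1 and 2, E16 replicate 3 and E18 replicate 2, and 10.25 to 12.09 on the high arrays, with the lowest of these on E18 replicate 3. ENSGALT00000036312 was bright in both states, between 13.58 and 14.07 on the high arrays and at 11.11, 10.54, 10.92 and 10.26 on the low arrays, a difference of -3.25 (standard error 0.18). Its lower level was well above the control. ENSGALT00000011444, ENSGALT00000022414 and ENSGALT00000022940 followed the same course, with differences of -3.13, -3.07 and -2.94. On the low arrays the highest values of these 3 were 9.57, 10.64 and 10.46. The lowest values on the high arrays were 10.60, 12.27 and 12.27, each on E18 replicate 3. All 18 belong to the transcripts lower on every low array than on every high array. The 6 were also chosen with states that do not overlap at E15, E16 or E18. Their lack of overlap was thus set by the choice and was no test. The smallest difference among the 18 was -1.12.

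In the opposite direction the pattern was broader and smaller. On 165 transcripts, 0.771% of all, every low array was above every high array. Their differences ran from 0.09 to 1.35 with a median of 0.75, where the median over all transcripts was 0.04. Only 24 of the 165 reached a difference of 1 and none reached 2. Of the 55 transcripts lower on the low arrays, 47 reached 1 in size and 39 reached 2. The 55 include the 25 of the block, which reach 2 by the gap that chose them. The 30 others had a median difference of -1.96. The 165 transcripts were mostly well expressed, with a median level of 11.92 over the arrays, against 10.59 for all transcripts. Among the low arrays their median was 12.39 and 12.40 at E15, 12.38 at E16 and 12.35 at E18. On the high arrays it was between 11.72 and 11.94, apart from E18 replicate 3 at 10.56. The set was chosen because the states did not overlap, so its median is a description. How many transcripts an arbitrary split would part in this direction was not counted either.

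**Figure D2:**
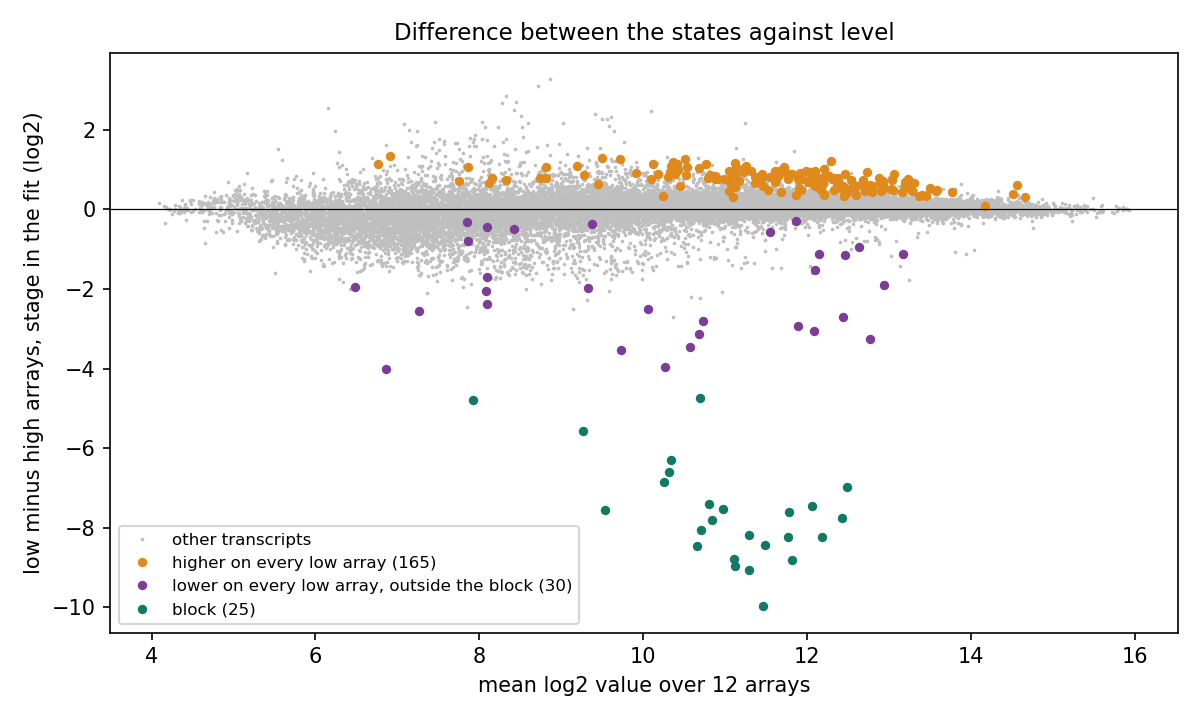
Difference between low and high arrays with stage in the fit (y axis, log2) against the mean log2 value over the 12 arrays (x axis), 1 point per transcript. The 25 block transcripts lie between -9.97 and -4.73, the 30 others lower on every low array between -4.01 and -0.29, and the 165 higher on every low array between 0.09 and 1.35.

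The size of the higher values depended on the high array used for comparison. At E16 the median difference of the 165 transcripts was 0.49, a 1.40-fold signal, and it was 0.46 against E16 replicate 2 alone. At E15, where the only high array is replicate 3, it was 0.70. At E18 it was 0.99 with both high arrays and 0.41, a 1.33-fold signal, against replicate 1 alone. E15 replicate 3 and E18 replicate 3 are 2 of the arrays with a narrow spread, and the part of that spread in the larger differences was not tested. Over all transcripts the median difference was 0.11 at E15, -0.03 at E16 and 0.05 at E18. For the 30 lower transcripts outside the block the median difference was -1.66 at E15, -1.62 at E16 and -2.23 at E18. Against E18 replicate 1 alone it was -2.18, so the median moved less with the choice of array. Single transcripts of the 30 could move more, in either direction. ENSGALT00000041374 read 6.78 on E18 replicate 1 and 11.60 on E18 replicate 3, while ENSGALT00000023726 read 11.98 and 10.25. With all arrays, 165 higher and 55 lower of 21390 transcripts were without overlap. This number can only stay or rise when arrays are left out, so the direction of its change was fixed in advance. Without E18 replicate 2 it was 372 higher and 106 lower on the low arrays, and without E15 replicate 3 and E18 replicates 2 and 3 it was 403 higher and 194 lower. With fewer arrays any arbitrary split also parts more transcripts, so the rise is no support for this split.

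**Figure D3:**
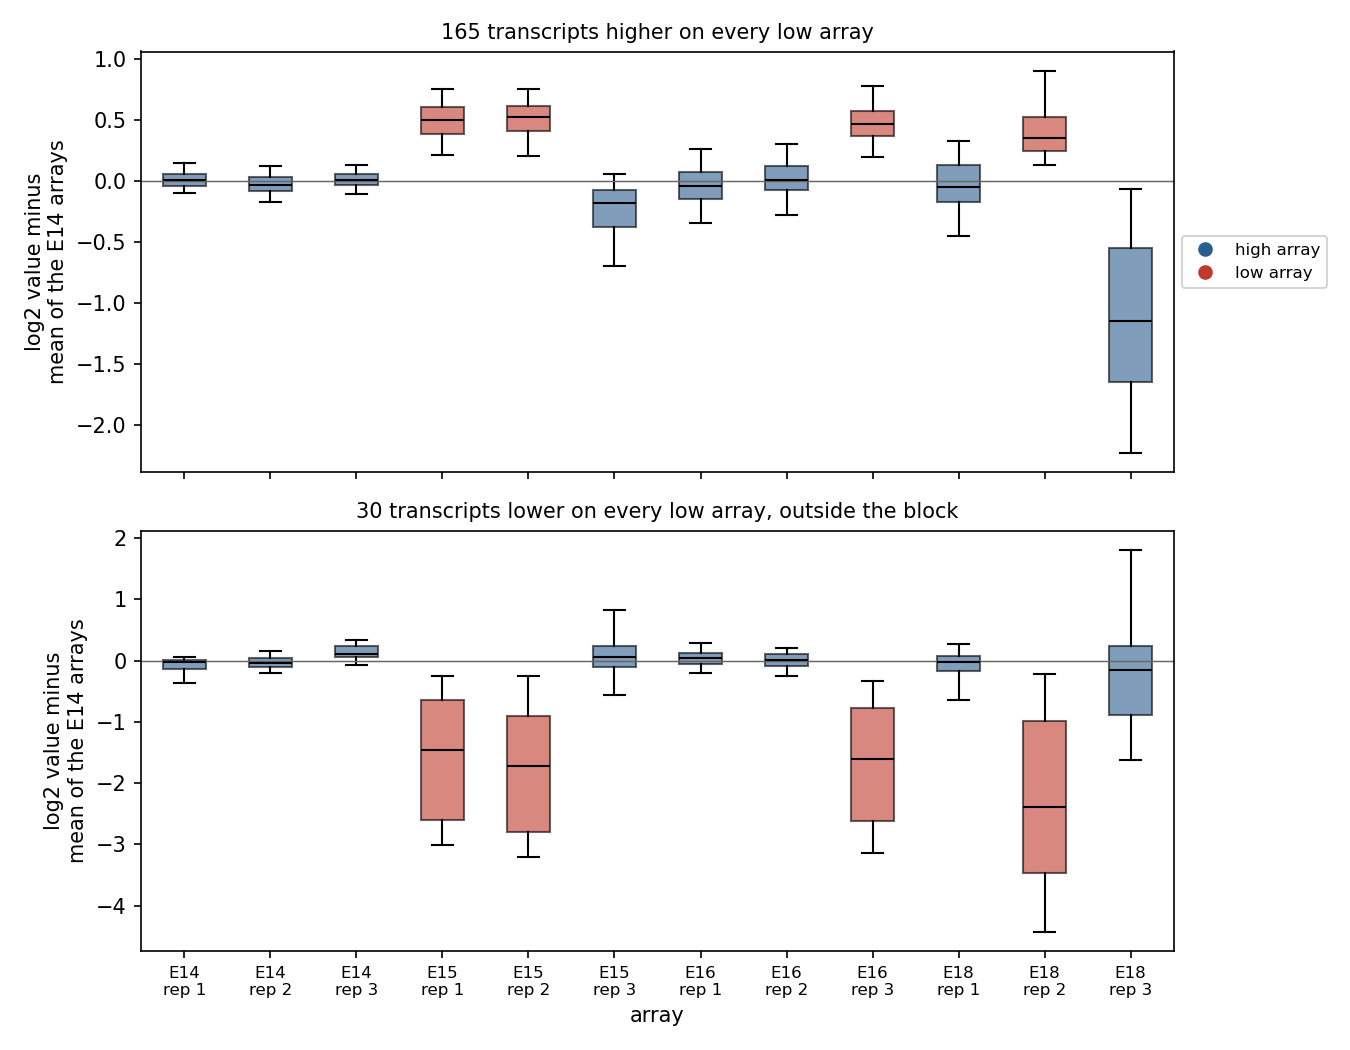
Log2 value of each transcript minus its mean over the 3 arrays at E14 (y axis) on each array (x axis), for the 165 transcripts higher (upper panel) and the 30 transcripts lower (lower panel) on every low array, outside the block. Boxes span the quartiles with the median as a line, whiskers the 5th to 95th percentile. The low arrays of the upper panel stand above the high arrays by a median difference of 0.49 at E16, and E18 replicate 3 lies far below the other high arrays.

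Few of the higher transcripts passed the fit. ENSGALT00000039551 was the only one called higher on the low arrays at an adjusted p of at most 0.05, which is 0.00468% of all transcripts. It is a dim transcript, at 7.49, 7.43, 7.88 and 7.69 on E15 replicates 1 and 2, E16 replicate 3 and E18 replicate 2, and at 5.84 to 7.07 on the high arrays, with a difference of 1.35 (standard error 0.19) and an adjusted p of 0.038 in limma. The call was lost in 15 of 21 other settings, over which the adjusted p ran from 0.0142 to 0.451, including median centring (0.0552), quantile normalization (0.0742) and the replicate block (0.269). The scaling of the arrays moved this count. After cyclic loess the fit called 43 lower and 32 higher, and it called 53 lower and 20 higher when the fit included array SD. It called 2 higher after median centring and 4 after quantile normalization, neither of which included ENSGALT00000039551. Without E18 replicate 1 it called 266 lower and 154 higher. Among the 165, the transcripts with the lowest p after ENSGALT00000039551 were chosen for naming after their values were seen. ENSGALT00000004252, one of the brightest, read 14.85, 14.99, 15.01 and 14.86 on the low arrays in the order above and 14.17 to 14.51 on the high arrays, a difference of 0.61 (standard error 0.10). ENSGALT00000008519 read 12.26, 12.41, 12.33 and 12.08 on the low arrays and 10.76 to 11.79 on the high arrays, a difference of 0.93 (standard error 0.15). ENSGALT00000025178 differed by 0.64, with 12.94 to 13.26 on the low arrays and 12.23 to 12.69 on the high arrays. ENSGALT00000008619 differed by 0.59, with 11.77 to 11.88 against 11.05 to 11.39, and ENSGALT00000009290 by 0.69, with 13.37 to 13.77 against 12.37 to 13.28. These 5 did not pass the adjusted threshold with all arrays and the deposited values. ENSGALT00000004252 and ENSGALT00000008519 each passed in 9 of 22 other settings, with an adjusted p in limma from 0.000403 to 0.670 and from 0.0026 to 0.645.

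Arrays left out of a choice of transcripts were then examined. The state of each array, and the block, still came from values of all 12 arrays. The fit was made on E15 and E16 alone, and the values were read at E18, where replicate 2 is the low array. With 6 arrays and 3 residual degrees of freedom, limma called 38 transcripts lower on the low arrays, 0.178% of all, of which 25 were the block and 13 lay outside it. Of the 13, 12 were lower on E18 replicate 2 than the mean of E18 replicates 1 and 3, with a median difference of -3.29. Over all transcripts 44.9% were lower and the median was 0.05. Values at E18 helped decide which transcripts lay outside the block, so this count is a description. It was 13 of 15 after median centring, 12 of 13 after cyclic loess and 12 of 15 after quantile normalization. In the other direction limma called 0 transcripts on E15 and E16, 0% of all, while 1496 higher (6.99%) and 1379 lower (6.45%) had an unadjusted p under 0.05. It also called 0 after median centring, cyclic loess and quantile normalization. With the dimmest transcripts removed, which left 14260, 10 were called higher, and 8 of these were higher on E18 replicate 2, with a median of 1.11, where 62.0% of those 14260 transcripts were higher with a median of 0.09. In that setting 14 of 18 lower transcripts outside the block were lower on E18 replicate 2. The arrays of E14, which are all high arrays, were read after another choice, by lack of overlap on E15 to E18 and without a fit. The 4 low arrays were above the 5 high arrays of E15 to E18 on 267 transcripts, and on 165 of these, or 61.8%, all 3 arrays at E14 were also below every low array. On 2 the E14 arrays were above every low array. By construction the 165 are the same transcripts given above as higher on every low array, so this count restates that set. Over all transcripts the 3 arrays at E14 were below every low array on 4.25% and above on 5.93%, but the 267 were chosen with the low arrays highest, so the shares are not alike in construction. The E14 mean was nearer to the mean of those 5 high arrays than to that of the low arrays on 130 of the 267, or 48.7%. Over all transcripts this held on 20.4%, so on most transcripts the E14 mean was not nearer to the other high arrays. The 267 were chosen by the separation of the states, so these shares are not alike in construction either. By the same lack of overlap 63 transcripts were chosen as lower outside the block. On 30 of these, or 47.6%, the 3 arrays at E14 were above every low array, and on 1 they were below. The 30 are again the set described above. The E14 mean was nearer to that of the 5 high arrays on 34 of the 63, or 54.0%, a set also chosen by the separation of the states. The arrays of E14 also entered the gaps that set the block.

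The identifiers of the parted transcripts were not spread evenly. Of the 25 block transcripts, 16 have an identifier with a number between 36302 and 36342, a stretch of which 22 transcripts were on the array. The limits of this stretch are the lowest and highest numbers of those 16, and were set after the values were seen. Of the other 6 transcripts of the stretch, ENSGALT00000036312, ENSGALT00000036313 and ENSGALT00000036315 were lower on every low array. ENSGALT00000036317 overlapped between the states, at 12.77 to 13.04 on the low arrays and 12.82 to 13.24 on the high arrays. ENSGALT00000036314 and ENSGALT00000036316 were lower on the low arrays of E15 and E16, but on E18 replicate 2 they read 12.90 and 8.47, above E18 replicate 1 at 11.62 and 7.82. The transcripts higher on the low arrays were most frequent in another stretch. Between the numbers 23600 and 25287, limits set after the values were seen, 60 of 878 transcripts, or 6.83%, were higher on every low array, against 105 of all the others, or 0.512%. In the stretch itself 2 of the 878, or 0.228%, were lower on every low array, where 0.257% of all transcripts were. The whole bin of 1000 numbers in which the stretch begins held 7 such lower transcripts, 1.42% of its 494. In that stretch 71.2% of transcripts had a difference above 0, where 56.8% of all transcripts did. What an identifier number says of the position of a transcript in the genome is not given in the files, so these counts are a description of the identifiers.

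**Figure D4:**
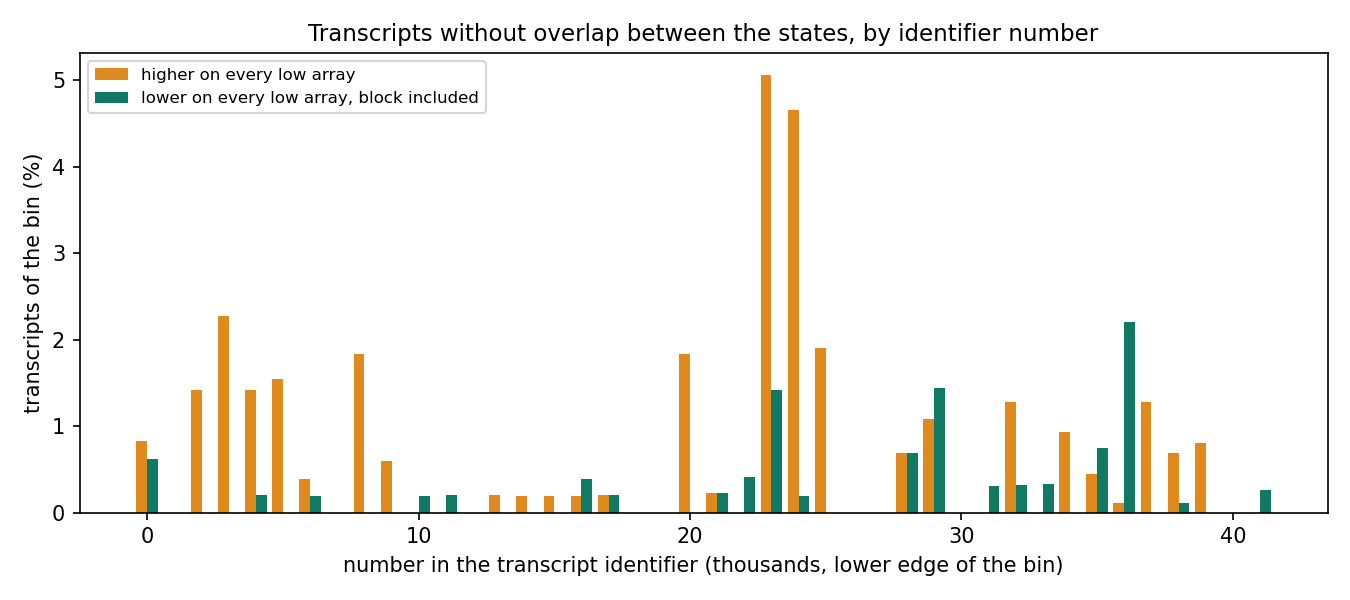
Share of the transcripts in each bin of 1000 identifier numbers (x axis) that were higher or lower on every low array (y axis, %). The shares higher on the low arrays reach 5.06% and 4.66% in the bins that start at 23 and 24 times 1000, and the share lower on the low arrays is highest, 2.21%, in the bin that starts at 36 times 1000, which holds most of the block.

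The state of the arrays was uneven across the stages, so the comparison of the stages was made with and without it. The moderated F-test of limma called 943 transcripts across the 4 stages, 4.41% of all, with stage alone in the fit, and 697, or 3.26%, with the state added. The 2 fits shared 658 transcripts. None of the 25 block transcripts, the 30 others lower on the low arrays or the 165 higher ones was called across the stages in either fit. These sets were chosen by the separation of the states, which fixes a large spread within stages and a fall in that spread once the state is added. In the block, the residual SD around the stage means had a median of 3.91 with stage alone and 0.47 with the state added. For the 165 it was 0.49 and 0.33, and over all transcripts it was 0.36 in both fits. The residual degrees of freedom fell from 8 to 7 with the added term. The number called across stages rested on single arrays, and was 147 when E14 replicate 2 was left out and 11106 when E18 replicate 1 was.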

How the data were processed

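Labelled cDNA made from RNA of whole chick lung was hybridized to a custom NimbleGen array, 1 array for each of 12 samples. Scans were normalized by the authors with RMA and analysed in ArrayStar, and the deposited log2 values hold 1 value per transcript and array for 21390 Ensembl transcripts and 1 random-sequence control. No normalization was added. The number of arrays limits the precision.

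The 4 low and 8 high arrays were taken from ENSGALT00000036310. In limma 3.58.1 (R 4.3.3), stage and state were fitted to all 12 arrays, and p-values were adjusted by Benjamini-Hochberg across 21390 transcripts (at most 0.05 for a call). The block needs a gap of 3 log2 units. The named transcripts include the marker and the widest and narrowest gaps of the block. Added were the 6 transcripts called lower outside it with the largest difference whose states do not overlap at E15, E16 or E18. Only ENSGALT00000039551 met the same rule among those called higher. The others named as higher were not called, and were taken by lowest p after their values were seen. A rule for called transcripts with a difference under 1 found none. The groups and lists were chosen with earlier results of these data known. Python 3.11.15 was used for counts and plots.

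Results were recomputed after cyclic loess, quantile scaling or centring on the array median, after removal of the third of transcripts that was dimmest by mean, with variances by trend and robust fitting, with array SD as covariate, or the replicate number as a block, without E14, at a stricter threshold, with other gaps, and with each array left out. The version of the annotation and the number of probes behind a transcript are not given in the sources used here. Where nothing says that samples came from separate animals, p-values measure the spread between these samples only.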

Additional observations from a re-analysis of the deposited data

Results flagged for a closer look

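Among 42 groups of arrays looked at, which are 21 transcripts or set medians in each state, 15 had 1 array far from the rest of its state, where chance flags about 1 in 20 of independent groups. These groups share the same 12 arrays, and many were chosen for their gap, so the counts cannot be set against that share. Of the 15, 12 were of E18 replicate 3, a high array with a narrow spread of values. It was above the other high arrays for ENSGALT00000036310 at 15.22, ENSGALT00000036333 at 15.09 and ENSGALT00000031505 at 12.92. It was below them for ENSGALT00000036319 at 11.49, ENSGALT00000023726 at 10.25, ENSGALT00000011444 at 10.60, ENSGALT00000022414 at 12.27, ENSGALT00000022940 at 12.27, ENSGALT00000008519 at 10.76 and ENSGALT00000009290 at 12.37. It was also below them in the median of the 30 transcripts lower outside the block, at 10.63, and of the 165 higher transcripts, at 10.56. E18 replicate 2 was below the other low arrays in the block median, at 5.16 against 6.21 to 6.26, and for ENSGALT00000036319, at 6.12 against 8.05 to 8.28. E15 replicate 3 was above the other high arrays in the block median, at 14.05. The cause was not tested.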

How the results depend on the processing

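The block held 25 transcripts, 27 at a gap of 2 log2 units and 20 at a gap of 4. It held 24 or 25 after the other scalings. With arrays left out it held 25 to 27, but leaving out arrays can only keep or raise this number. The named transcripts were chosen with states that do not overlap, so their direction was no test. Over their settings 27 calls were lost, 15 of them of ENSGALT00000039551, 11 of ENSGALT00000038395 and 1 of ENSGALT00000011444, and 31 were gained. The number called lower on the low arrays, 43, stayed between 33 and 53 in the settings that keep all arrays, and ran from 33 to 266 with 1 array left out, the highest without E18 replicate 1. Without E18 replicates 2 and 3 it was 70. The number called higher, 1, was 2 after median centring, 32 after cyclic loess, 4 after quantile normalization, 5 without the dimmest transcripts, 9 with trend and robust variances, 20 with array SD as covariate, 0 without E14 and 0 at an adjusted p of at most 0.01 in limma, where 459 higher (2.15%) and 231 lower (1.08%) had an unadjusted p under 0.05 with all arrays. It ran from 0 to 154 with 1 array left out, was 89 without E18 replicates 2 and 3 and 42 also without E15 replicate 3. The number called across stages with the state in the fit, 697, was 1672 after cyclic loess, 1194 without the dimmest transcripts, 1243 with trend and robust variances, 6 without E14 and 112 at the stricter threshold, and ran from 147 to 11106 with 1 array left out. All counts without the dimmest transcripts are of 14260 transcripts and not of 21390. Without E14 the test across stages no longer compares E14 with the later stages, so that count is of another test.

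With the replicate number as a block, 33 were called lower, 0 higher and 178 across stages. The labels do not say that a number marks a shared batch, so the numbers were not taken to pair the samples.

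Transcripts without overlap, 55 lower (0.257% of all) and 165 higher (0.771%), ran from 57 to 106 and from 165 to 372 with 1 array left out. They were 136 and 386 without E18 replicates 2 and 3, and 194 and 403 also without E15 replicate 3. All these counts are of the same 21390 transcripts, and leaving out arrays can only keep or raise them, as it would for any arbitrary split. With 1 array left out, the difference between the states ran from -0.0206 to 0.0790 in array SD, from -0.0212 to 0.0347 in array median, from -0.0939 to 0.0653 in lower quartile and from -0.0868 to 0.155 in the random control. The settings that leave out 2 or 3 arrays, and all counts of transcripts without overlap, were chosen after the values were seen. Causes were not tested.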
